A study of Homo sapiens with 20 samples.

Results

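The genes described here encode 46 enzymes and regulatory enzymes of glycolysis, the pentose phosphate pathway, pyruvate oxidation and the tricarboxylic acid (TCA) cycle. These genes were chosen by gene symbol, with earlier results of these data known. They are 46 of the 28051 named genes in the expression data, and all 46 passed the low-value filter and were tested, together with 13256 genes in all. By pathway step they fall into 7 genes of upper glycolysis, 9 of lower glycolysis and lactate formation, 5 that set or remove fructose bisphosphates, 6 of the pentose phosphate pathway, 5 of the pyruvate dehydrogenase complex and its kinases, and 14 of the TCA cycle together with the isocitrate and malate dehydrogenases.

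Glycolysis splits glucose phosphate into pyruvate, with phosphofructokinase as its main committed step, and lactate dehydrogenase interconverts pyruvate and lactate. The pentose phosphate pathway branches off glucose phosphate and yields NADPH, the electron donor that the phagocyte oxidase uses to make superoxide, and ribose for nucleotides. Pyruvate dehydrogenase feeds acetyl-CoA into the mitochondrial TCA cycle, and its kinases switch it off. Mature neutrophils carry few mitochondria and are known to rely on glycolysis and on pentose phosphate NADPH for their oxidative burst.

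HL60 is an established promyelocytic leukemia cell line that matures toward neutrophils in all-trans retinoic acid (ATRA), a vitamin A derivative that acts on the retinoic acid receptor. The libraries came from HL60 cells expressing Cas9 alone (Cas9 control) or labelled HK3-null (KO-2G in their titles, a line in which CRISPR was aimed at hexokinase 3), each treated for 36 h with 1 µM ATRA or with 0.01% DMSO, the solvent. RNAseq had 3 libraries in each of the 4 groups and ATACseq, which maps open chromatin by transposase insertion, had 2. A single knockout label covers all HK3-null libraries, the labels do not name separate cultures, and differences between the 2 lines therefore cannot be told apart from differences between 1 clone and another. The methods of the study call the libraries biological replicates without saying how they were kept apart, and p-values measure the spread between these libraries.

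Expression is given below as the normalized count, the count after scaling for depth, whose total was 29053838 to 31548189 per library. The targeted gene, HK3, had 90, 65 and 105 normalized counts in Cas9 control DMSO against 344, 302 and 346 in HK3-null DMSO. With ATRA the values were 1305, 1298 and 1850 against 1384, 1285 and 1975. No loss of the RNA was seen under the knockout label, so the gene-level count gives no check of it. The paper reports a check of its knockout clones by sequencing of the cut site and by mass spectrometry, which lies outside these libraries. "HK3-null" below is used only as the name of the line. All 14 neutrophil maturation markers were called higher in HK3-null than in Cas9 control in both treatments, and their summed normalized count was 8658 to 9171 in Cas9 control DMSO, 35973 to 38137 in Cas9 control ATRA, 45533 to 48254 in HK3-null DMSO and 149626 to 155847 in HK3-null ATRA. Markers of other cell types also differed between the lines, as given below. The part of these marker differences in the enzyme results was not tested.

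The sequences that bear on the largest changes come first. For PFKM, the ATACseq region near its start site is shown up to the base before the first annotated exon in it (hg38 chr12:48119039-48119263, plus strand), since its signal was lowest in HK3-null. For PFKFB2, the region that the file lists with this gene alone, inside an intron, is shown (hg38 chr1:207069131-207069393, plus strand).
PFKM: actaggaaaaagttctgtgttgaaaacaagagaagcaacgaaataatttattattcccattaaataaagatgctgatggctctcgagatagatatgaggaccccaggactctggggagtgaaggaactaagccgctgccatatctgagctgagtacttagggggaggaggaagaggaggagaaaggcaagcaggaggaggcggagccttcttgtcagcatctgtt
PFKFB2: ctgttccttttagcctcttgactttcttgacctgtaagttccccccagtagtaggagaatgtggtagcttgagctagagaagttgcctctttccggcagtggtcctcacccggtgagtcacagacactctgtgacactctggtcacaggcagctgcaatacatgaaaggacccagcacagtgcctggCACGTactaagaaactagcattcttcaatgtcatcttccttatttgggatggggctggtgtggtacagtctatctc
For FBP1, PGD, IDH3A and TIGAR, the members with a single promoter in the RefSeq table (GRCh38.p14) and the largest called changes, the 250 bases before the start are shown on the strand of the gene (chr9:94639519-94639768, minus strand; chr1:10398814-10399063, chr15:78149112-78149361 and chr12:4320963-4321212, plus strand).
FBP1: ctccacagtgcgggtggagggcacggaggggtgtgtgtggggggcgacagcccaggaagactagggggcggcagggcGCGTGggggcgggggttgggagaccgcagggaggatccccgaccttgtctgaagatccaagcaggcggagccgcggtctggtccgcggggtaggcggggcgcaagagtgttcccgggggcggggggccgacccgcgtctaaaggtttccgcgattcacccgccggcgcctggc
PGD: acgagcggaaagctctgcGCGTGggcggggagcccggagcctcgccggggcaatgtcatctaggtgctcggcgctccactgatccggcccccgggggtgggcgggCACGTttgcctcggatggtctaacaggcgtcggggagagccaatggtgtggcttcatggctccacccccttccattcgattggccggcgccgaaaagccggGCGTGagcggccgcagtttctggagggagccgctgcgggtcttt
IDH3A: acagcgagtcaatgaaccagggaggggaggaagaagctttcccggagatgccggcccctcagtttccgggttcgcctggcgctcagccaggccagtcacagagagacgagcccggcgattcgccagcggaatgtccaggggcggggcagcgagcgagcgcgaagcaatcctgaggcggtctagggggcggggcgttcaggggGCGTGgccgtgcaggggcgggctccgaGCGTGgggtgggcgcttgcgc
TIGAR: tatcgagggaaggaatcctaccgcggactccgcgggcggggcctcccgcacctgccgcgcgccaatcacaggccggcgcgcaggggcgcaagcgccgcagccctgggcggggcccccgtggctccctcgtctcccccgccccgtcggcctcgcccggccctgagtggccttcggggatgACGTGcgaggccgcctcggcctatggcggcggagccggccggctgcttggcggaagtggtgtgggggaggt
Capitals mark, on either strand, ACGTG or GCGTG, the core letters of the hypoxia response element, and CACGTG, the E-box bound by MYC and related factors, which contains ACGTG. The stretches shown hold 1 ACGTG in PGD, 1 in TIGAR and 1 in PFKFB2. They hold 1 GCGTG in FBP1, 2 in PGD and 2 in IDH3A, and no CACGTG. The letters of these 3 motifs do not occur in the PFKM stretch.

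Over whole promoters of 300 bases, of which 64 belonged to 44 of the members, 34.4% held ACGTG against 21.4% of all 35116 promoters in the table. GCGTG was in 43.8% of the member promoters against 36.5%, and CACGTG in 10.9% against 7.26%. The 7 members with CACGTG in a promoter were ALDOA, ALDOC, GAPDH, LDHA, PDHB, PDK2 and PFKFB3. OGDH and PFKFB2 have no promoter in the table. Several promoters of 1 gene overlap, and these shares are a description.

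Per kilobase of transcript, the members spanned a wide range of levels. Averaged over the 4 groups, GAPDH led with 135010 normalized counts per kilobase, followed by ENO1 (65620), ALDOA (33348), LDHB (25593), PKM (21151) and TPI1 (18567). TKT, at 14638, and PGD, at 9390, were the highest and third-highest of the pentose phosphate genes, with TALDO1 (10309) between them, and MDH1 (6752) was the highest of the TCA group. The lowest were PDK2 (3.10), PFKFB2 (3.02) and ENO2 (2.43), whose fitted fold changes depend on how a count of 0 is written and are replaced below by counts or ratios of summed counts. PDK2 and PFKFB2 passed the low-value filter only through their HK3-null groups, and ENO2 only through Cas9 control DMSO.

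Together the 46 genes took 2.71% ± 0.037 of the normalized counts in Cas9 control DMSO (SD, n = 3), 2.55% ± 0.047 in Cas9 control ATRA, 2.01% ± 0.033 in HK3-null DMSO and 2.03% ± 0.080 in HK3-null ATRA. The 2 lines did not overlap in either treatment, and in HK3-null the ATRA and DMSO libraries did overlap, at 1.94% to 2.09% and 1.98% to 2.04%. The summed count of lower glycolysis was 555790 ± 10756 in Cas9 control DMSO and 366530 ± 12382 in HK3-null DMSO (SD, n = 3). That of the pentose phosphate genes was 60086 ± 1647 in Cas9 control DMSO, 87454 ± 1326 in Cas9 control ATRA, 64845 ± 1381 in HK3-null DMSO and 123370 ± 4606 in HK3-null ATRA. Because a few abundant genes set these sums, the tests were made gene by gene.

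**Figure D1:**
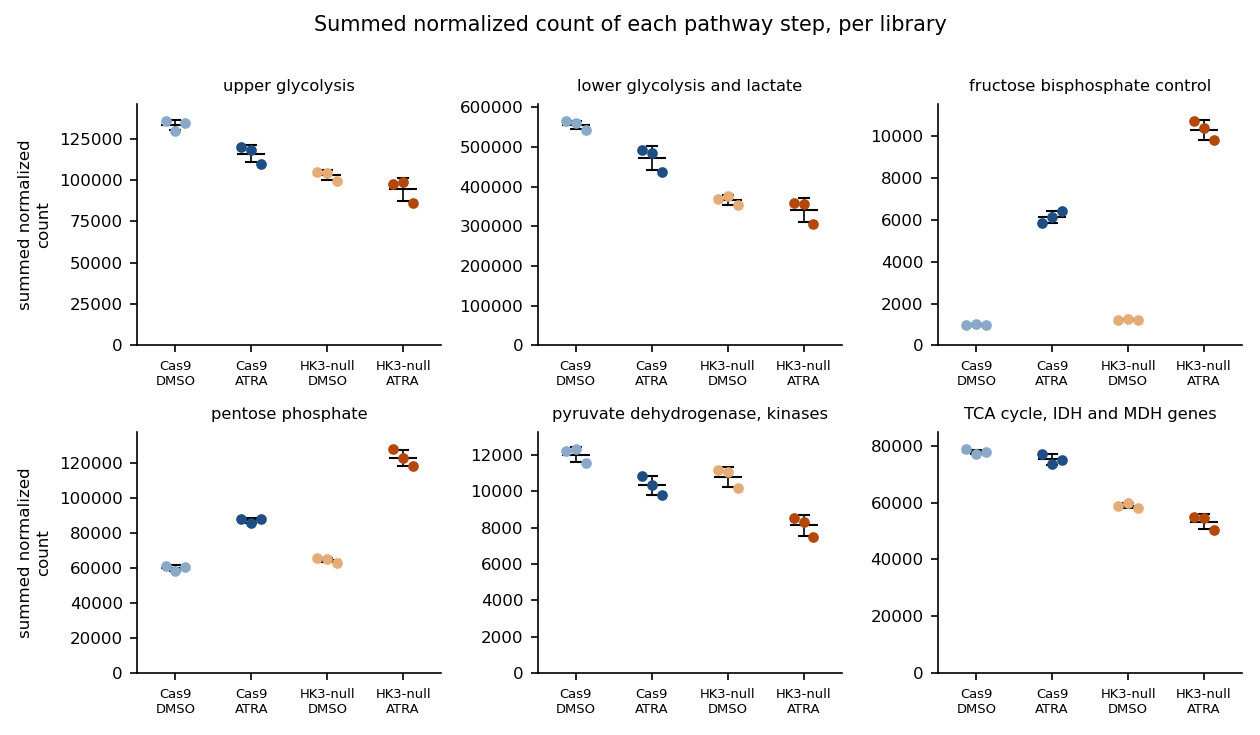
Summed normalized count of the genes of each pathway step in each RNAseq library (points), with the group mean and SD (bars) and axes from 0. Upper and lower glycolysis and the TCA group sit lower in HK3-null than in Cas9 control in both treatments, while the pentose phosphate sum is highest in HK3-null ATRA (mean 123370).

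Comparing HK3-null with Cas9 control in DMSO asks how the edited line differs at rest. Of the 46 genes, 25 (54.3%) were called lower and 8 (17.4%) higher at an adjusted p under 0.05, against 27.1% lower and 27.9% higher of all genes tested. In ATRA, 25 were lower and 7 (15.2%) higher, against 29.5% and 29.6%. The median log2 fold change of the 46 was -0.32 in DMSO and -0.34 in ATRA, where the median over all tested genes was 0.00 and 0.01. With a fold of at least 1.5 also required, 9 genes were lower and 3 higher in DMSO, against 14.7% and 17.4% of all genes, and 14 were lower and 5 higher in ATRA, against 17.6% and 18.8%. The 3 libraries of each line did not overlap for 27 lower and 9 higher genes in DMSO, against 31.9% and 31.8% of all genes, and for 26 lower and 8 higher in ATRA, against 31.2% and 32.2%. Between the 2 treatments, 23 genes were lower in both, 5 were higher in both and 1, PGAM1, was lower in DMSO and higher in ATRA. The calls in DMSO and in ATRA compare different libraries, but of the same 2 lines and with a shared estimate of the spread. They are therefore not independent, and the share of all tested genes called in both was not counted. In DMSO the higher calls under both rules include PFKFB2, whose fitted fold rests on zeros and which passed the filter only through HK3-null. The genes without overlap include PFKFB2, PDK2 and ENO2 in DMSO, and PFKFB2 and ENO2 in ATRA.

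Comparing ATRA with DMSO asks how differentiation moved the same genes. In the Cas9 control 18 of 46 (39.1%) were lower and 7 (15.2%) higher, against 21.3% and 20.3% of all genes tested. In HK3-null 17 (37.0%) were lower and 11 (23.9%) higher, against 25.1% and 24% of all genes. The medians were -0.11 and -0.09 on the log2 scale in the Cas9 control and HK3-null, and -0.018 and -0.15 with quantile normalization. With a fold of at least 1.5, 3 genes were lower and 5 higher in the Cas9 control (7.79% and 11.2% of all genes) and 4 lower and 7 higher in HK3-null (12.9% and 13.6%). The higher calls in the Cas9 control include PFKFB2 under both rules. ATRA and DMSO libraries did not overlap for 22 lower and 10 higher genes in the Cas9 control, against 25.9% and 25.4% of all genes, and for 18 and 13 in HK3-null, against 29% and 29.6%. Without 1 library at a time, the count of lower genes in the Cas9 control lay between 10 and 19, with 10 when ATRA replicate 3 or DMSO replicate 1 was left out and 11 without DMSO replicate 2. The call of 9 of the 25 genes changed by ATRA in the Cas9 control was lost without at least 1 library, and in each of them the fold was under 1.5. With the replicate block of the same limma fit, ATRA also gave calls in the Cas9 control for PFKFB3 (0.24, adjusted p = 0.0110) and IDH3G (0.21, adjusted p = 0.0184), both higher, and for PDHA1 (-0.09, adjusted p = 0.0305), GAPDH (-0.15, adjusted p = 0.0340) and CS (-0.10, adjusted p = 0.0432), all lower. In HK3-null the block added PGLS (0.14, adjusted p = 0.0206) and IDH2 (0.15, adjusted p = 0.0433) as higher, and PGLS was also higher in HK3-null than in the control in DMSO (0.13, adjusted p = 0.0277).

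**Figure D2:**
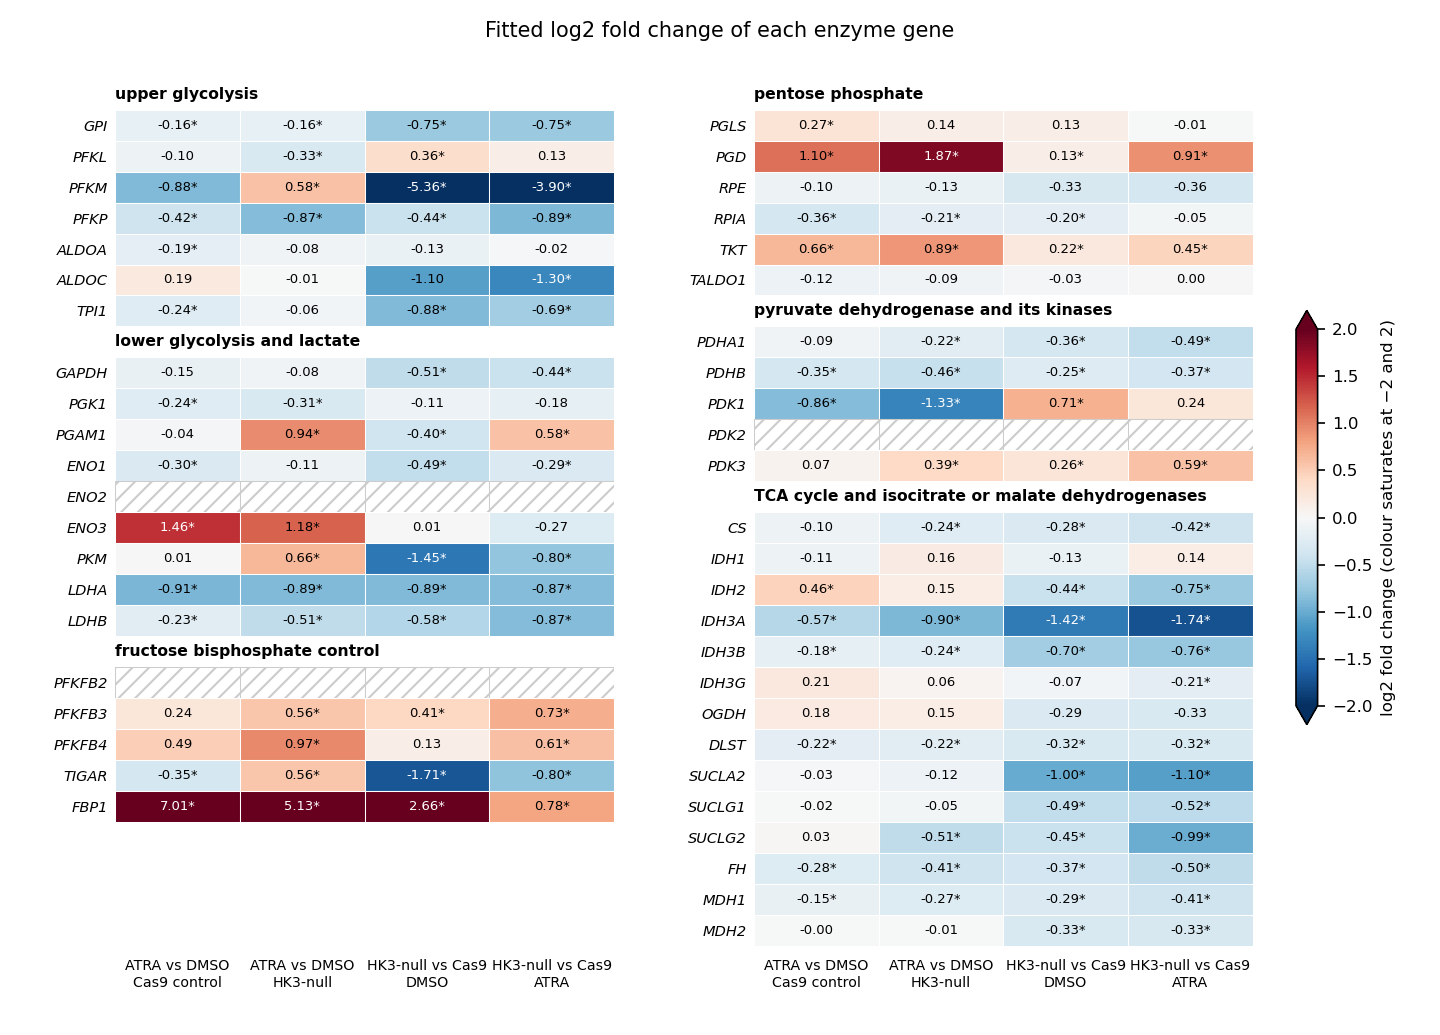
Fitted log2 fold change of each of the enzyme genes (rows, by pathway step) in 4 comparisons (columns), with an asterisk at an adjusted p under 0.05 and colour saturating at -2 and 2. Hatched rows are the low-count genes ENO2, PFKFB2 and PDK2, and the TCA rows are lower or not called in both columns that compare HK3-null with the control.

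In upper glycolysis, 4 of 7 genes were lower and 1 higher in HK3-null in DMSO, against 27.1% and 27.9% of all tested genes. In ATRA 5 were lower and none higher, against 29.5% and 29.6%. GPI, which converts glucose phosphate to fructose phosphate, read 25929, 24821 and 25443 in Cas9 control DMSO and 15609, 15184 and 14642 in HK3-null DMSO. In ATRA it read 23639, 23319 and 21432 against 14213, 14004 and 12534. The lines did not overlap, and GPI was lower by the same amount in both treatments, with a log2 fold change of -0.75 (SE 0.058, adjusted p = 8.83e-07) in DMSO and -0.75 (adjusted p = 7.44e-07) in ATRA. ATRA itself lowered GPI only slightly, by -0.16 in each line (adjusted p = 0.0488 and 0.0403), a call lost without some libraries.

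TPI1, which interconverts the triose phosphates, read 34769, 34524 and 34020 in Cas9 control DMSO against 18835, 19282 and 18209 in HK3-null DMSO. In ATRA it read 29940, 30352 and 27008 against 18750, 19341 and 15984. The log2 fold change of HK3-null against Cas9 control was -0.88 (SE 0.071, adjusted p = 1.21e-06) and -0.69 (adjusted p = 6.73e-06). ALDOA, the main aldolase of blood cells, read 60881, 57733 and 61283, then 54162, 53099 and 50092, in the Cas9 control in DMSO and ATRA, and 55500, 55178 and 53129, then 53173, 54448 and 47601, in HK3-null. It did not pass between the lines, at -0.13 in DMSO and -0.02 in ATRA, although in DMSO it was called with the replicate number as a block (adjusted p = 0.036). ALDOC, the brain-type aldolase, varied widely among control libraries, with 62, 258 and 199 counts in DMSO and 150, 258 and 122 in ATRA, against 70, 58 and 79 and 65, 50 and 97 in HK3-null. Its log2 fold change in ATRA was -1.30 (SE 0.48, adjusted p = 0.0346), a call lost when Cas9 control ATRA replicate 1 or 2 or HK3-null ATRA replicate 1 or 2 was left out (highest adjusted p = 0.132). In DMSO the change was -1.10 (adjusted p = 0.070, and 0.0482 with the replicate block).

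The 3 phosphofructokinase genes moved apart. PFKM (chr12:48105353-48146404 in GRCh38), the muscle-type subunit, read 1169, 1016 and 1129 in Cas9 control DMSO and 24, 29 and 28 in HK3-null DMSO. In ATRA it read 633, 511 and 665 in the Cas9 control and 42, 36 and 43 in HK3-null. The log2 fold change between the lines was -5.36 (SE 0.14, adjusted p = 1.96e-10) in DMSO, a 41.0-fold difference, and -3.90 (adjusted p = 2.28e-09) in ATRA, a 14.9-fold difference. ATRA moved PFKM in opposite directions, by -0.88 in the Cas9 control (adjusted p = 3.68e-04) and by 0.58 in HK3-null (adjusted p = 0.00428, and 0.0796 after quantile normalization).

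PFKL, the liver-type subunit, read 10026, 9161 and 9908 in Cas9 control DMSO and 12988, 12773 and 11560 in HK3-null DMSO, a log2 fold change of 0.36 (SE 0.063, adjusted p = 5.07e-04). In ATRA it read 9379, 8968 and 8849 against 10546, 9934 and 9282, a change of 0.13 (adjusted p = 0.0987, and 0.0279 with the replicate block). PFKP, the platelet-type subunit, read 2652, 2261 and 2520 in Cas9 control DMSO, 1861, 1874 and 1827 in Cas9 control ATRA, 1854, 1914 and 1706 in HK3-null DMSO and 1072, 1046 and 885 in HK3-null ATRA. PFKP thus fell with ATRA in both lines (-0.42 and -0.87, adjusted p = 0.00204 and 5.81e-06) and was lower in HK3-null in both treatments (-0.44 and -0.89, adjusted p = 8.83e-04 and 3.10e-06). The ratio of PFKP to PFKL counts had geometric means of 0.255, 0.205, 0.147 and 0.101 in those 4 groups. No 2 of the groups compared overlapped in this ratio, with an exact two-sided permutation p = 0.1, the smallest that 3 against 3 allows, and an adjusted p = 0.145 over 16 tests of ratios.

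PFKM also had an ATACseq region. The region at chr12:48119039-48119484 (hg38), whose centre lies at -103 bases from the start of the canonical transcript and which overlaps an untranslated part of an annotated exon, had a signal of 44.7 and 89.2 in the 2 Cas9 control DMSO libraries and 68.9 and 35.4 in Cas9 control ATRA. In HK3-null it read 2.36 and 7.29 in DMSO and 4.93 and 0 in ATRA. Every HK3-null library was below every Cas9 control library, and the ratio of HK3-null to Cas9 control means was 0.0720 in DMSO and 0.0473 in ATRA. The deposited regions are all at least 1.5-fold apart between the lines in ATRA, so this region was selected on that difference and no test is given.

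In lower glycolysis, 6 of 9 genes were lower and none higher in HK3-null in DMSO, against 27.1% and 27.9% of all tested genes. In ATRA 5 were lower and 1 higher, against 29.5% and 29.6%. GAPDH, the most abundant member per kilobase, read 216754, 212780 and 208184 in Cas9 control DMSO against 150041, 153982 and 143272 in HK3-null DMSO, a log2 fold change of -0.51 (SE 0.070, adjusted p = 8.18e-05). In ATRA the change was -0.44 (adjusted p = 2.31e-04). PGK1, which makes the first ATP of the payoff phase, did not pass between the lines (-0.11 and -0.18, adjusted p = 0.243 and 0.0612, the latter 0.00512 with the replicate block). PGK1 fell with ATRA in both, by -0.24 (adjusted p = 0.0234) and -0.31 (adjusted p = 0.00505). Most of these abundant genes have processed pseudogenes of nearly identical sequence, so how their reads were shared cannot be seen in the counts.

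ENO1, the main enolase, read 149046, 146506 and 144079 in Cas9 control DMSO and 106301, 107435 and 99900 in HK3-null DMSO (log2 fold change -0.49, SE 0.079, adjusted p = 2.93e-04). In ATRA it read 125846, 122566 and 108965 against 103876, 101999 and 85902, and was also lower (-0.29, adjusted p = 0.00731). ENO2, the neuronal enolase, was at the edge of detection, with 22, 10 and 6 counts, then 4, 3 and 10, in the Cas9 control in DMSO and ATRA, and 3, 5 and 1, then 2, 0 and 1, in HK3-null. The ratio of summed ENO2 counts of HK3-null to Cas9 control was 0.237 in DMSO (95% exact interval 0.101 to 0.498) and 0.176 in ATRA (0.0331 to 0.61), with intervals that cover counting error only, and ENO2 was not called in any comparison (with the replicate block, adjusted p = 0.0444 between the lines in ATRA). ENO2 passed the low-value filter only through Cas9 control DMSO, so its ratio in DMSO is a description and not a test. ENO3, the muscle enolase, read 57, 58 and 83 in Cas9 control DMSO, 116, 134 and 368 in Cas9 control ATRA, 50, 60 and 93 in HK3-null DMSO and 141, 129 and 180 in HK3-null ATRA. ENO3 rose with ATRA in both lines, by 1.46 (SE 0.39, adjusted p = 0.0114) and 1.18 (adjusted p = 0.0267), and the call in HK3-null was lost when HK3-null ATRA replicate 1 or 3 or HK3-null DMSO replicate 1 or 2 was left out (highest adjusted p = 0.0962).

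PGAM1, the phosphoglycerate mutase, read 3085, 3182 and 3133 in Cas9 control DMSO and 3153, 3082 and 2915 in Cas9 control ATRA. In HK3-null it read 2356, 2473 and 2316 in DMSO and 4786, 4605 and 4318 in ATRA. ATRA thus raised PGAM1 in HK3-null (0.94, SE 0.052, adjusted p = 7.12e-08), while the change in the Cas9 control was -0.04. The line difference changed sign, from -0.40 in DMSO (adjusted p = 5.84e-05) to 0.58 in ATRA (adjusted p = 2.21e-06).

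PKM, the pyruvate kinase that makes pyruvate and ATP, read 67430, 64809 and 66161 in Cas9 control DMSO and 67847, 68952 and 62475 in Cas9 control ATRA. In HK3-null it read 24448, 24718 and 23492 in DMSO and 39168, 39490 and 36057 in ATRA. PKM was lower in HK3-null by -1.45 (SE 0.053, adjusted p = 2.86e-09) in DMSO and -0.80 (adjusted p = 2.30e-07) in ATRA, and rose with ATRA in HK3-null (0.66, adjusted p = 1.56e-06). PKM lies on chromosome 15, where the median of all 431 tested genes was -0.94 in DMSO and -0.97 in ATRA. Relative to that median, PKM was at -0.51 in DMSO (adjusted p = 2.30e-05) and at 0.15 in ATRA (adjusted p = 0.0382), so its direction in ATRA turns.

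The 2 lactate dehydrogenase subunits, LDHA and LDHB, both fell. LDHA, the muscle-type subunit, read 52805, 54668 and 49471 in Cas9 control DMSO, 30754, 29444 and 23845 in Cas9 control ATRA, 28264, 28741 and 27842 in HK3-null DMSO and 16437, 16041 and 13548 in HK3-null ATRA. Its 4 log2 fold changes were nearly the same size: -0.91 and -0.89 for ATRA in the Cas9 control and HK3-null (SE 0.096, adjusted p = 2.25e-05 and 1.57e-05), and -0.89 and -0.87 for HK3-null in DMSO and ATRA (adjusted p = 1.32e-05 and 1.36e-05). LDHB, the heart-type subunit, read 44747, 46136 and 43052, then 40130, 38447 and 35573, in the Cas9 control in DMSO and ATRA, and 29134, 30652 and 29542, then 21712, 22581 and 18470, in HK3-null. LDHB fell less with ATRA, by -0.23 in the Cas9 control (adjusted p = 0.0259) and -0.51 in HK3-null (adjusted p = 1.38e-04). It was lower in HK3-null by -0.58 in DMSO (adjusted p = 4.29e-05) and -0.87 in ATRA (adjusted p = 1.52e-06).

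The count ratio of LDHA to LDHB was 1.18, 1.18 and 1.15 in Cas9 control DMSO, 0.766, 0.766 and 0.670 in Cas9 control ATRA, 0.970, 0.938 and 0.942 in HK3-null DMSO and 0.757, 0.710 and 0.734 in HK3-null ATRA. ATRA lowered the mean log2 ratio by -0.68 and -0.37 in the 2 lines, and HK3-null was below the control by -0.30 in DMSO, with no overlap (exact permutation p = 0.1 and adjusted p = 0.145 for each). In ATRA the lines overlapped and their difference was 0.00 (exact permutation p = 1).

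FBP1 rose with ATRA in both lines. FBP1 (chr9:94603133-94640263 in GRCh38), the gluconeogenic bisphosphatase that reverses the phosphofructokinase step, read 42, 34 and 44 in Cas9 control DMSO, 4834, 5079 and 5424 in Cas9 control ATRA, 271, 242 and 244 in HK3-null DMSO and 9109, 8869 and 8424 in HK3-null ATRA. No groups overlapped. ATRA raised FBP1 128-fold in the Cas9 control (log2 fold change 7.01, SE 0.096, adjusted p = 1.43e-12) and 34.9-fold in HK3-null (5.13, adjusted p = 2.82e-11). HK3-null was above the control by 6.34-fold in DMSO (2.66, adjusted p = 2.50e-09) and by 1.72-fold in ATRA (0.78, adjusted p = 2.93e-05).

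The PFKFB enzymes make and remove fructose 2,6-bisphosphate, the activator of phosphofructokinase. PFKFB3, the inducible form with high kinase activity, read 596, 647 and 572, then 712, 752 and 679, in the Cas9 control in DMSO and ATRA, and 788, 844 and 775, then 1327, 1222 and 1021, in HK3-null. PFKFB3 was higher in HK3-null by 0.41 in DMSO (SE 0.095, adjusted p = 0.0035) and 0.73 in ATRA (adjusted p = 4.68e-05), and rose with ATRA in HK3-null (0.56, adjusted p = 4.73e-04). PFKFB4 read 61, 59 and 51, then 91, 64 and 87, in the Cas9 control and 57, 57 and 74, then 93, 111 and 174, in HK3-null. It rose with ATRA in HK3-null (0.97, SE 0.24, adjusted p = 0.00562), while its difference between the lines in ATRA (0.61, adjusted p = 0.0457) was lost in 10 of 17 alternatives, among them without HK3-null ATRA replicate 3 (0.35, adjusted p = 0.185) and without Cas9 control ATRA replicate 2 (0.45, adjusted p = 0.164).

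PFKFB2, the heart-type form, had zeros in Cas9 control DMSO on which its fitted fold depends. It read 1, 0 and 0 in Cas9 control DMSO, 6, 9 and 8 in Cas9 control ATRA, 16, 19 and 22 in HK3-null DMSO and 61, 64 and 50 in HK3-null ATRA. Every step of that order was without overlap. The ratio of summed counts of HK3-null to Cas9 control was 57 in DMSO (95% exact interval 9.83 to 2290, counting error only, from 57 against 1 count) and 7.61 in ATRA (4.91 to 12.3), and that of ATRA to DMSO in HK3-null was 3.07 (2.26 to 4.22). PFKFB2 passed the low-value filter only through its HK3-null groups, so the ratios between the lines are a description and not a test. The 3 ATACseq regions listed with PFKFB2, which were also selected on their difference between the lines in ATRA, were all more open in HK3-null. The region of the printed sequence read 5.50 and 9.38 in Cas9 control DMSO, 5.88 and 3.88 in Cas9 control ATRA, 23.2 and 26.2 in HK3-null DMSO and 47.6 and 28.6 in HK3-null ATRA.

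TIGAR, a bisphosphatase that diverts sugar toward the pentose phosphate pathway, read 270, 281 and 287 in Cas9 control DMSO, 195, 223 and 242 in Cas9 control ATRA, 89, 78 and 89 in HK3-null DMSO and 113, 142 and 124 in HK3-null ATRA. TIGAR was lower in HK3-null by -1.71 in DMSO (SE 0.12, adjusted p = 5.32e-07) and -0.80 in ATRA (adjusted p = 1.89e-04). With ATRA it fell in the Cas9 control (-0.35, adjusted p = 0.0427, lost without some libraries) and rose in HK3-null (0.56, adjusted p = 0.00295).

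In the pentose phosphate pathway, 3 of 6 genes rose and 1 fell with ATRA in the Cas9 control, against 20.3% and 21.3% of all tested genes. In HK3-null 2 rose and 1 fell, against 24% and 25.1%. PGD (chr1:10399064-10420511 in GRCh38), which makes the second NADPH of the oxidative branch, read 10633, 10384 and 9958 in Cas9 control DMSO and 22467, 22585 and 21275 in Cas9 control ATRA. In HK3-null it read 11554, 11283 and 11119 in DMSO and 42598, 41655 and 40058 in ATRA. ATRA raised PGD 2.14-fold in the Cas9 control (log2 fold change 1.10, SE 0.044, adjusted p = 7.68e-09) and 3.66-fold in HK3-null (1.87, adjusted p = 1.26e-10). The lines were close in DMSO (0.13, adjusted p = 0.0247, and 0.111 relative to the median of each chromosome) and 1.87-fold apart in ATRA (0.91, adjusted p = 2.27e-08).

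TKT, the transketolase that links the pathway back to glycolysis, read 30318, 28067 and 30925, then 46887, 44933 and 49133, in the Cas9 control in DMSO and ATRA, and 35244, 34933 and 33524, then 67113, 63484 and 61688, in HK3-null. TKT rose with ATRA in both lines (0.66 and 0.89, SE 0.055, adjusted p = 3.43e-06 and 1.72e-07) and was higher in HK3-null in both treatments (0.22 and 0.45, adjusted p = 0.00589 and 2.87e-05). The other genes of the pathway moved little. PGLS, the lactonase between the 2 NADPH-making dehydrogenases, rose by 0.27 with ATRA in the Cas9 control (adjusted p = 0.00503), and RPIA, which makes ribose phosphate, fell by -0.36 and -0.21 with ATRA (adjusted p = 0.00282 and 0.0398).

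TALDO1, the transaldolase, was not called in any comparison, with log2 fold changes of -0.12 and -0.09 for ATRA and -0.03 and 0.00 between the lines (with the replicate block, adjusted p = 0.0105 for ATRA in the Cas9 control and 0.0404 in HK3-null). RPE, the ribulose phosphate epimerase, read 1864, 2109 and 2220 in Cas9 control DMSO and 1418, 1619 and 1907 in HK3-null DMSO, and so rose with the replicate number in both lines. It did not pass at -0.33 in DMSO and -0.36 in ATRA (adjusted p = 0.0976 and 0.0731) but was lower with the replicate block (adjusted p = 4.34e-04 and 2.37e-04).

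For entry into the TCA cycle, both measured genes of the pyruvate dehydrogenase E1 enzyme were lower in HK3-null. PDHA1 was at -0.36 in DMSO (SE 0.052, adjusted p = 1.26e-04) and -0.49 in ATRA (adjusted p = 9.72e-06), and PDHB at -0.25 (adjusted p = 0.0105) and -0.37 (adjusted p = 8.59e-04). PDHB also fell with ATRA in both lines (-0.35 and -0.46, adjusted p = 0.00232 and 2.20e-04).

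The pyruvate dehydrogenase kinases went separate ways. PDK1 read 1296, 1427 and 1062 in Cas9 control DMSO, 875, 695 and 537 in Cas9 control ATRA, 2270, 2176 and 1749 in HK3-null DMSO and 919, 901 and 651 in HK3-null ATRA. PDK1 fell with ATRA in both lines, by -0.86 (SE 0.19, adjusted p = 0.00394) and -1.33 (adjusted p = 1.45e-04), and was higher in HK3-null in DMSO (0.71, adjusted p = 0.00839). In ATRA the lines overlapped (0.24, adjusted p = 0.302, and 0.0194 with the replicate block). PDK3 read 306, 338 and 308, then 323, 357 and 318, in the Cas9 control, and 374, 351 and 421, then 543, 451 and 512, in HK3-null. PDK3 was higher in HK3-null by 0.26 in DMSO (SE 0.10, adjusted p = 0.043, and 0.158 without 1 library) and 0.59 in ATRA (adjusted p = 3.66e-04).

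The PDK1 to PDK3 count ratio went from a geometric mean of 3.95 to 2.07 with ATRA in the Cas9 control and from 5.39 to 1.63 in HK3-null, without overlap (exact permutation p = 0.1, adjusted p = 0.145). PDK2 was too low and too uneven to compare, with 8, 1 and 0, then 0, 0 and 46, in the Cas9 control and 16, 15 and 11, then 11, 10 and 7, in HK3-null, and it was not called in any comparison.

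The TCA group was the most one-sided between the lines. Of its 14 genes, 11 were lower and none higher in HK3-null in DMSO, against 27.1% and 27.9% of all tested genes. In ATRA 12 were lower and none higher, against 29.5% and 29.6%. The median log2 fold changes of the group were -0.35 in DMSO and -0.46 in ATRA. IDH3A, the catalytic subunit of the NAD-dependent isocitrate dehydrogenase, read 3502, 3385 and 3278 in Cas9 control DMSO, 2390, 2228 and 2215 in Cas9 control ATRA, 1256, 1269 and 1285 in HK3-null DMSO and 680, 663 and 698 in HK3-null ATRA. No groups overlapped. IDH3A fell with ATRA by -0.57 (SE 0.050, adjusted p = 5.19e-06) and -0.90 (adjusted p = 7.83e-08) and was lower in HK3-null by -1.42 (adjusted p = 2.32e-09) and -1.74 (adjusted p = 4.69e-10). Relative to the chromosome 15 median it was still lower, by -0.48 (adjusted p = 1.38e-05) and -0.79 (adjusted p = 2.07e-07).

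The regulatory subunit IDH3B read 7148, 6938 and 7296, then 6374, 6300 and 6220, in the Cas9 control in DMSO and ATRA, and 4356, 4591 and 4251, then 3887, 3923 and 3356, in HK3-null. It was lower by -0.70 in DMSO (SE 0.060, adjusted p = 2.17e-06) and -0.76 in ATRA (adjusted p = 8.72e-07), whereas IDH3G, the other regulatory subunit, was at -0.07 in DMSO and -0.21 in ATRA (adjusted p = 0.0444, lost without some libraries). IDH2, the mitochondrial NADP-dependent enzyme, read 5545, 5512 and 5908, then 7686, 7716 and 7941, in the Cas9 control in DMSO and ATRA, and 4201, 4269 and 4024, then 4865, 4902 and 4169, in HK3-null. IDH2 rose with ATRA in the Cas9 control (0.46, SE 0.062, adjusted p = 1.42e-04) and was lower in HK3-null by -0.44 (adjusted p = 1.06e-04) and -0.75 (adjusted p = 1.34e-06). IDH2 also lies on chromosome 15, and relative to that chromosome's median it was higher in HK3-null, by 0.50 in DMSO (adjusted p = 9.05e-05) and 0.20 in ATRA (adjusted p = 0.0218). IDH1, its cytosolic counterpart, did not pass in any comparison and ranged from 967 to 1580 counts within Cas9 control ATRA alone.

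The succinyl-CoA ligase subunits, which make ATP or GTP from succinyl-CoA, were all lower in HK3-null. SUCLA2, the ATP-forming subunit, read 2295, 2577 and 2418, then 2299, 2262 and 2597, in the Cas9 control in DMSO and ATRA, and 1207, 1182 and 1240, then 1033, 1026 and 1294, in HK3-null. It was 2.01-fold lower in DMSO (log2 SE 0.092, adjusted p = 3.19e-06) and 2.14-fold lower in ATRA (adjusted p = 1.30e-06), and lower by -0.47 and -0.55 (log2) relative to its chromosome 13, whose median was -0.57 in both treatments. SUCLG2, the GTP-forming subunit, read 2258, 2299 and 2255, then 2404, 2237 and 2319, in the Cas9 control, and 1710, 1620 and 1671, then 1272, 1190 and 1059, in HK3-null. SUCLG2 was lower by -0.45 in DMSO (adjusted p = 1.32e-04) and -0.99 in ATRA (adjusted p = 2.06e-07). SUCLG1, the shared subunit, was lower by -0.49 and -0.52 (SE 0.049, adjusted p = 6.72e-06 and 3.12e-06).

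The rest of the TCA group was lower in HK3-null by smaller steps. In DMSO and ATRA, CS, which forms citrate, was at -0.28 and -0.42, DLST at -0.32 and -0.32, FH, the fumarase, at -0.37 and -0.50, MDH1 at -0.29 and -0.41 and MDH2 at -0.33 and -0.33, all past the test (highest adjusted p = 0.00272). OGDH, the first enzyme of the oxoglutarate dehydrogenase complex, ranged from 1806 to 2537 counts within Cas9 control DMSO and did not pass at -0.29 and -0.33 (adjusted p = 0.234 and 0.179), but was lower with the replicate block (adjusted p = 0.00444 and 0.00217). ATRA moved the group less. In the Cas9 control 5 genes fell and 1 rose, against 21.3% and 20.3% of all tested genes. In HK3-null 7 fell and none rose, against 25.1% and 24%.

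The interaction of genotype and treatment asks whether ATRA acted differently in the 2 lines. Of the 46 genes, 5 were called with a higher and 4 with a lower change in HK3-null, against 4.48% and 4.64% of all genes tested. With a fold of at least 1.5 as well, 5 and 1 remained, against 2.47% and 2.83%. With the replicate block these counts were 7 and 8, and with quantile normalization 6 and 12. The block added PFKFB3 (0.32, adjusted p = 0.0360) and TKT (0.23, adjusted p = 0.0392) with a higher change, and PDK1 (-0.47, adjusted p = 0.0139), LDHB (-0.28, adjusted p = 0.0225), IDH2 (-0.31, adjusted p = 0.0260) and PFKL (-0.23, adjusted p = 0.0300) with a lower one. A higher change was called for PFKM (1.46, SE 0.19, adjusted p = 7.27e-04), PGAM1 (0.98, adjusted p = 1.52e-05), TIGAR (0.91, adjusted p = 0.00777), PGD (0.77, adjusted p = 2.63e-05) and PKM (0.65, adjusted p = 3.19e-04). A lower change was called for FBP1 (-1.88, SE 0.14, adjusted p = 1.14e-05), SUCLG2 (-0.54, adjusted p = 0.00364), PFKP (-0.45, adjusted p = 0.0336, and 0.0889 without 1 library) and IDH3A (-0.33, adjusted p = 0.0146).

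**Figure D3:**
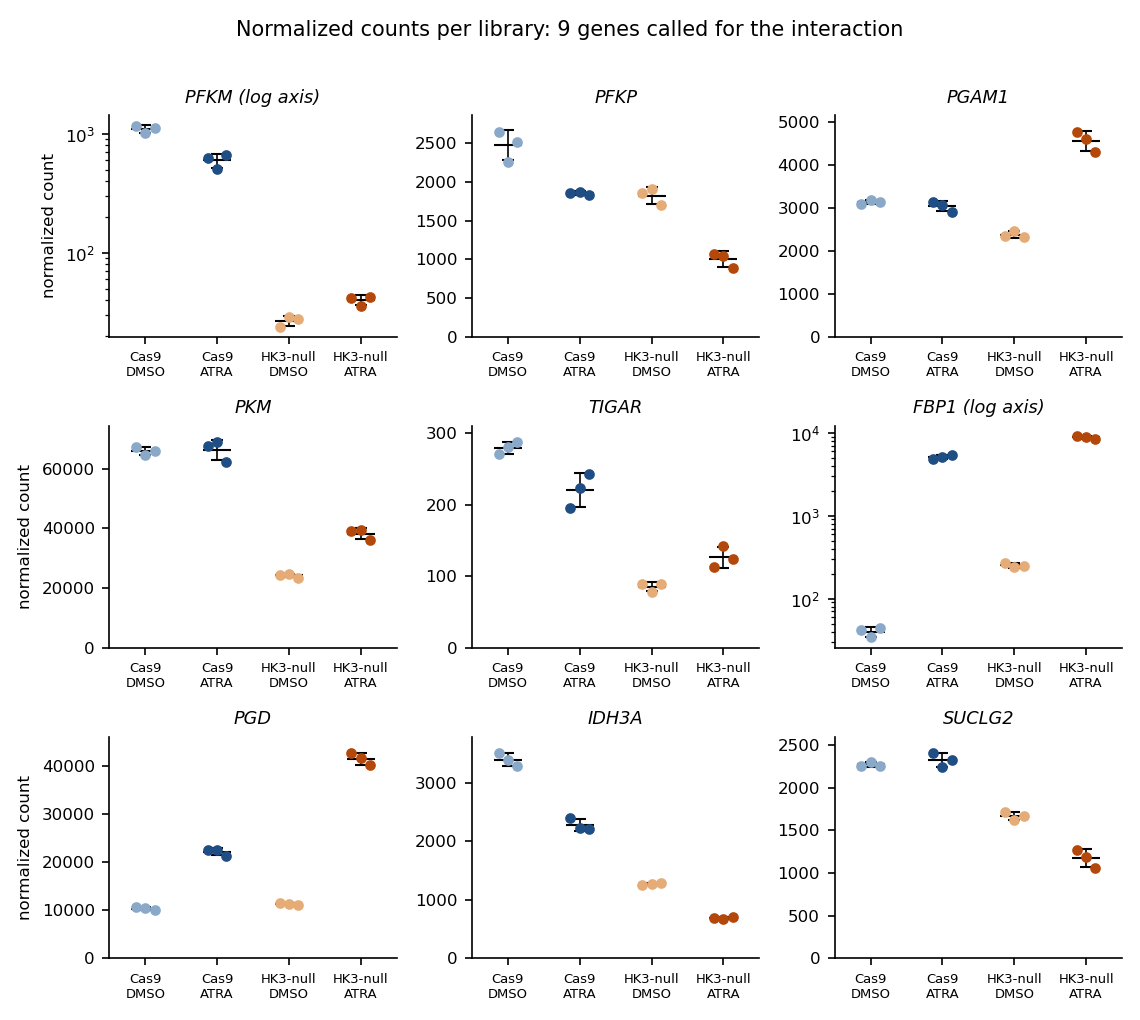
Normalized count in each RNAseq library (points) with the group mean and SD (bars) for the 9 genes called for the interaction, on linear axes from 0 except for PFKM and FBP1, which have log axes. PGAM1 lies between 2915 and 3182 in both Cas9 control groups but goes from 2316 to 2473 up to 4318 to 4786 in HK3-null, and PGD is highest in HK3-null ATRA.

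**Figure D4:**
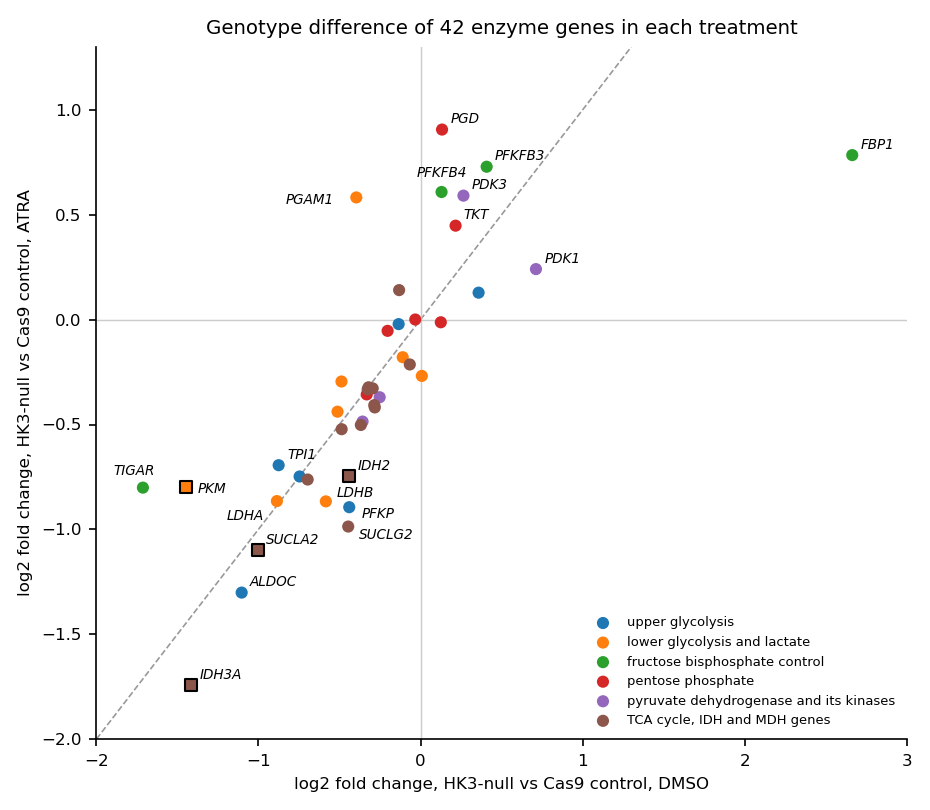
Fitted log2 fold change of HK3-null against Cas9 control in DMSO (x axis) and in ATRA (y axis), coloured by pathway step, for 42 genes, leaving out PFKM (-5.36 and -3.90) and the low-count ENO2, PFKFB2 and PDK2. Black-edged squares lie on chromosomes 13 and 15, the dashed line marks equal change, and PGD and PGAM1 lie well above that line while FBP1 lies far below it.

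Few of these genes lie on a chromosome whose median shifted between the lines. The median log2 fold change of all tested genes on a chromosome in DMSO was -0.75 on chromosome 5, 0.52 on 6, 1.10 on 8, -0.57 on 13 and -0.94 on 15. No member lies on 5, 6 or 8, while SUCLA2 lies on 13 and PKM, IDH2 and IDH3A on 15. Over the other 42 genes, 21 were lower and 8 higher in DMSO and 21 lower and 7 higher in ATRA, with medians of -0.29 and -0.33. Of all tested genes, 27.1% were lower and 27.9% higher in DMSO, and 29.5% and 29.6% in ATRA. A median over a whole chromosome cannot show a shift of part of it. On chromosome 12, with a median of 0.02 in DMSO, TIGAR, GAPDH, TPI1, LDHB, PFKM and CS were lower in both treatments, while ENO2 was not called. Shifts of parts of chromosomes were not tested.

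Of 61 further genes of the same pathways, 46 were tested. In HK3-null, 19 of them were lower and 10 higher in DMSO, against 27.1% and 27.9% of all tested genes. In ATRA 20 were lower and 9 higher, against 29.5% and 29.6%. With ATRA, 18 fell and 10 rose in the Cas9 control, against 21.3% and 20.3% of all tested genes. In HK3-null 23 fell and 10 rose with ATRA, against 25.1% and 24%. H6PD, the NADPH-making dehydrogenase of the endoplasmic reticulum, had group means of 235 and 1684 in the Cas9 control in DMSO and ATRA and 936 and 7833 in HK3-null, and was higher in HK3-null by 2.01 (adjusted p = 2.64e-07) and 2.22 (adjusted p = 1.06e-07). PC, the pyruvate carboxylase that refills the cycle, had means of 13.7 and 24 in the Cas9 control and 323 and 228 in HK3-null, a log2 fold change of 4.58 in DMSO (adjusted p = 6.00e-08). HK2, the main hexokinase of proliferating cells, fell with ATRA by -1.25 and -1.37 (adjusted p = 3.64e-04 and 1.26e-04) and did not pass between the lines (-0.25 and -0.37, adjusted p = 0.296 and 0.124, and 0.033 and 0.00439 with the replicate block). HK1 was lower in HK3-null, by -1.63 in DMSO (adjusted p = 1.11e-04) and -0.59 in ATRA (adjusted p = 0.0469).

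Among 9 tested transporters of glucose, lactate, pyruvate and mitochondrial carboxylates and their partners, 2 were higher and 3 lower in HK3-null in DMSO and 3 higher and 4 lower in ATRA. Of all tested genes, 27.9% were higher and 27.1% lower in DMSO, and 29.6% and 29.5% in ATRA. SLC2A3, a high-affinity glucose transporter, had means of 60.7 and 51.3 in the Cas9 control and 742 and 1084 in HK3-null (3.63 and 4.42, adjusted p = 4.81e-08 and 1.10e-08). SLC16A1, a lactate transporter, fell with ATRA in both lines (-0.92 and -1.43, adjusted p = 3.86e-04 and 8.91e-06). Of 19 tested targets of the hypoxia-inducible factor outside these pathways, 8 were higher and 3 lower in HK3-null in DMSO, against 27.9% and 27.1% of all tested genes. In ATRA 7 were higher and 3 lower, against 29.6% and 29.5%. ATRA lowered 8 of them and raised 4 in the Cas9 control, against 21.3% and 20.3% of all tested genes. In HK3-null it lowered 8 and raised 3, against 25.1% and 24%.

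Marker lists were counted in the same comparisons, where 27.9% of all tested genes were higher and 27.1% lower in HK3-null in DMSO, and 29.6% and 29.5% in ATRA. Of 20 proliferation genes, 4 were higher and 7 lower in HK3-null in DMSO, and 6 higher and 3 lower in ATRA. Of 10 promyelocytic markers, 6 were higher and 2 lower in DMSO and 5 higher and 2 lower in ATRA. The eosinophil markers (5 tested of 6) had 4 higher in both treatments, with summed counts of 7265 to 8181 and 514 to 641 in Cas9 control DMSO and ATRA and 163487 to 171188 and 43837 to 52743 in HK3-null, where PRG2 made up nearly all of it (mean 166090 in DMSO and 48407 in ATRA). The monocyte and macrophage markers (6 tested of 8) had 5 higher in DMSO and 4 higher and 1 lower in ATRA, with summed counts of 182 to 279, 1068 to 1433, 1705 to 1720 and 5014 to 5371 in Cas9 control DMSO, Cas9 control ATRA, HK3-null DMSO and HK3-null ATRA. CD163 and MRC1 were at 0 in Cas9 control DMSO and in HK3-null ATRA. The lymphoid and erythroid markers (4 tested of 11) summed to at most 1359, with MS4A1 and HBA1 at 0 in every group. In bulk RNA, fewer cells of a type and less RNA per cell cannot be told apart, and the part of these markers in the enzyme results was not tested.

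The deposited ATACseq regions are all at least 1.5-fold apart between the lines in ATRA. They were selected on that difference, so no test is given. Of the 8286 regions, 16 were listed with 12 of the 46 genes. In ATRA, 12 were more open and 4 less open in HK3-null, and all 16 had the same side in DMSO, as did 98.3% of all regions, of which 54.9% were more open in HK3-null in ATRA. The 4 less open regions were listed with PFKM, GAPDH, SUCLA2 and SUCLG2. The RNA of these genes was also lower in HK3-null, as was that of 54.3% of the 46 genes in each treatment. The GAPDH region lies outside the gene, 6003 bases beyond its start site, and is listed with other genes too. So is the SUCLA2 region, 67633 bases beyond the start site on chromosome 13, whose RNA median was -0.57 in both treatments. The SUCLG2 region (chr3:67655389-67656109, centre at -1137 bases from the start site) read 57.2 and 57.4, then 64.0 and 54.9, in the Cas9 control in DMSO and ATRA, and 19.8 and 26.4, then 15.5 and 19.96, in HK3-null. No HK3-null library overlapped a Cas9 control library there.

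Among the more open regions, that of PDK2 (chr17:50095016-50095494, centre at -96 bases from the start site) read 8.73 and 8.07, then 6 and 4.33, in the Cas9 control in DMSO and ATRA, and 34.1 and 27.5, then 28 and 29.9, in HK3-null, where its RNA stayed at 7 to 16 counts. PFKP and ENO1 had more open regions in HK3-null but less RNA, so a listed region and its gene did not always move the same way. The TKT region (chr3:53222080-53222552, 33706 bases beyond the start site) read 30.5 and 41.7, then 31.4 and 21.3, in the Cas9 control, and 37.6 and 39.9, then 74.9 and 72.1, in HK3-null. The lines overlapped in DMSO and not in ATRA, the treatment on which the regions were selected, so this contrast is a description. In the central 250 bases of the 15 member regions long enough, ACGTG was in 13.3%, GCGTG in 26.7% and CACGTG in 6.67%, against 15.4%, 23.0% and 6.03% of all 8093 such regions.

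**Figure D5:**
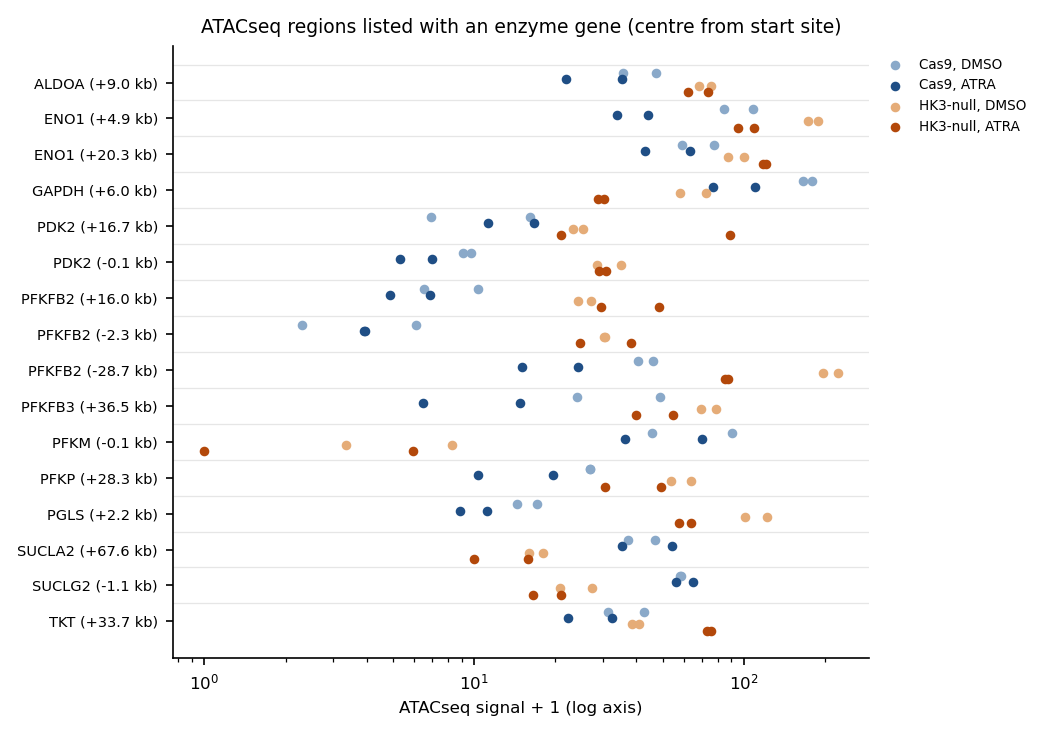
ATACseq signal plus 1 (log axis) in each library for the 16 regions listed with an enzyme gene, with the distance in kilobases of the region centre from the start site of the gene. Colours mark the 4 groups with 2 libraries each, and for PFKM the HK3-null libraries (signal 0 to 7.29) lie left of all Cas9 control libraries (35.4 to 89.2).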

How the data were processed

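RNAseq was analysed in 12 libraries and ATACseq in 8. The authors mapped paired-end reads to GRCh38 and deposited expression as log2 values, whole counts scaled for depth with 0 written as log2 of 0.001. The methods call these RPKM, but no division by length was seen in the values, so they were used as log2 normalized counts, and per-kilobase levels divide by the canonical transcript length (GENCODE 44). The authors deposited ATACseq signal as fragment density in merged MACS2 regions (hg38), limited to those at least 1.5-fold apart between the lines in ATRA. Library depth in reads was estimated at 22.681 to 37.02 (in units of 1e+06) from the steps between low values, while ATACseq depth is unknown. Unnamed rows, at most 0.00926% of a library, were left out.

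A group-means model of the 4 groups was fitted with limma 3.58.1 (R 4.3.3) on 13256 genes with a group mean log2 above 3, and p-values were Benjamini-Hochberg adjusted over all of them (threshold 0.05). Adjusted p-values in the report are from this limma fit unless named otherwise. Ratios of isoenzymes were compared with two-sided exact permutation tests. The fit was also run on simulated data with independent libraries and few changed genes, so that run does not give its error rate in these data. Same-numbered libraries of different groups deviated together (18 pairs, r from 0.189 to 0.629, and 36 other pairs, -0.641 to 0.282), so the numbers pair the samples. The main fit and the permutation tests leave this pairing out, and a fit with the replicate block is given where it changed a call. Alternatives were the block, quantile normalization, no filter, a pseudocount of 1, chromosome medians centred, other thresholds and leaving out each library. The members and lists were chosen with earlier results of these data known. Values in every library are given for members past the test with a fold of at least 1.5 and for isoenzymes, and outside the members the 3 genes of each list with the largest called changes (group mean of at least 50), HK1, HK2 and HK3 could be named.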

Additional observations from a re-analysis of the deposited data

Results flagged for a closer look

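The change in the line difference between treatments (log2 fold change of HK3-null against Cas9 control in ATRA minus that in DMSO) passed the interaction test of the limma fit for 9 genes, so the effect of ATRA differed between the lines there. It was 1.46 for PFKM, 0.98 for PGAM1, 0.91 for TIGAR, 0.77 for PGD and 0.65 for PKM. It was -1.88 for FBP1, -0.54 for SUCLG2, -0.45 for PFKP and -0.33 for IDH3A. FBP1 rose with ATRA in both lines and IDH3A and PFKP fell in both, whereas PFKM and TIGAR fell in the Cas9 control and rose in HK3-null. No hypothesis about these differences was tested.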

How the results depend on the processing

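The 56 pairs of gene and comparison called with a fold of at least 1.5 include PFKFB2, whose fitted folds rest on zeros. For these 56 pairs, 17 alternatives gave 952 values. Of these, 932 kept their direction and their side of the threshold, 18 were no longer past it and 2 reversed. The reversals were PKM (0.15) and IDH2 (0.20) between the lines in ATRA with chromosome medians centred. The lost calls belonged to ENO3, ALDOC and PFKFB4. With the replicate block 0 of the calls in the 5 comparisons were lost, and the interaction count of lower genes went from 4 to 8. Genes called for ATRA went from 25 to 31 in the Cas9 control and from 28 to 31 in HK3-null. Between the lines they went from 33 to 38 in DMSO and from 32 to 38 in ATRA.

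Requiring a fold of at least 1.5 beside the adjusted p, or beside an unadjusted p, left 3 and 3 lower genes for ATRA in the Cas9 control, 7 and 7 higher and 4 and 4 lower for ATRA in HK3-null, 3 and 3 higher and 9 and 10 lower between the lines in DMSO, 14 and 15 lower in ATRA, and 1 and 2 lower for the interaction. With quantile normalization the interaction had 12 lower genes, and the median log2 fold change was -0.018 for ATRA in the Cas9 control, -0.15 for ATRA in HK3-null and -0.16 for the interaction. The cause was not tested.

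Leaving out 1 library at a time gave 10 to 19 lower genes for ATRA in the Cas9 control (10 without Cas9 control ATRA replicate 3 or DMSO replicate 1, 11 without DMSO replicate 2). Between the lines it gave 24 to 26 lower genes in each treatment. Of 144 ratio values, 9 moved by more than the spread. With 3 libraries a group, ratios cannot pass an exact test, and low counts limit ENO2, PFKFB2 and PDK2.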
